A study of Mus musculus with 9 samples.

Results

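Proteasome genes were followed across 3 sorted populations of cultured mouse hematopoietic cells. The set held every row of the gene count table whose symbol starts with Psma, Psmb, Psmc, Psmd, Psme, Psmf or Psmg followed by a digit, without symbols holding -ps. The name matched 54 of the table's 49585 rows. The 4 rows with -ps (Psmb5-ps, Psmb6-ps, Psmb6-ps2 and Psmb7-ps2) had 0 counts in all 9 libraries and were dropped, which left 50 members. Of these, 48 passed the filter on low counts and were tested. One of the 48, Psmc3ip, matches by spelling alone: it encodes HOP2, a protein of meiotic recombination, so 47 of the tested members are proteasome genes. The 2 members that were not tested were Psmb11, the thymus-specific catalytic subunit, with 7 counts over all libraries, and Psme2b, with 0 of 46303043 counts, which allows up to 0.0648 counts-per-million (CPM).

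The cells were wild-type CD34-CD150+KSL hematopoietic stem cells (HSCs; KSL stands for Kit+ Sca-1+ cells without lineage markers) from C57BL/6 mouse bone marrow. They were expanded in F12 medium with 0.1% polyvinyl alcohol (PVA), insulin-transferrin-selenium, penicillin-streptomycin, 100 ng/ml thrombopoietin and 10 ng/ml stem cell factor, for 10 days by the design text and for one week by the growth protocol. After culture, 3 populations were sorted and sequenced as bulk RNA in 3 replicates each: CD201+CD150+CD48-KSL cells (here CD201+CD48-), CD201+CD150+CD48+KSL cells (CD201+CD48+) and CD201-KSL cells (CD201-). The sample titles name the last gate CD201-CD150+CD48+KSL, whereas the treatment label and the design text name it CD201-KSL. All 3 populations came out of the same kind of culture, none was freshly isolated, and each library was made from over 5000 sorted cells. The age and number of the mice, and whether replicates came from separate animals or cultures, were not given in the sources used here, so p-values measure the spread between these libraries, which may be technical.

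The proteasome is the main protease for proteins tagged with ubiquitin. Its barrel-shaped 20S core stacks outer rings of alpha subunits (Psma genes) on inner rings of beta subunits (Psmb genes), and Psmb5, Psmb6 and Psmb7 encode the precursors of the cutting subunits. The 19S regulatory particle binds, unfolds and deubiquitinates substrates with a base of ATPases (Psmc genes) and non-ATPase subunits and a lid (Psmd genes). In cells exposed to interferon, and in many blood cells at rest, Psmb8, Psmb9 and Psmb10 take the places of Psmb5, Psmb6 and Psmb7 and form the immunoproteasome, known for making peptides for MHC class I. The PA28 activators (Psme1, Psme2 and Psme3) and PA200 (Psme4) cap the core in place of the 19S particle, and dedicated chaperones (Psmg genes, Psmd5, Psmd9 and Psmd10) help assemble core and base.

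Libraries held 3810123 to 7072885 counts and 13663 to 17845 detected genes. Levels are given as CPM with library sizes scaled by TMM factors, edgeR's trimmed-mean normalisation, in the order of replicates 1, 2 and 3. The sorted antigens followed the labels: Procr, which encodes CD201, averaged 63.2 ± 3.74 CPM (SD, n = 3) in CD201+CD48-, 26.5 ± 2.16 in CD201+CD48+ and 3.56 ± 1.07 in CD201- cells, and Cd48 averaged 5.86 ± 0.671, 83.3 ± 7.22 and 125 ± 4.25. One library stood apart from its group. The chi-square per degree of freedom between replicates was 13.9 and 13.2 for the pairs holding CD201- replicate 3, against 1.37 to 3.62 for the other 7 pairs. Among the 48 tested members, 18 (37.5%) deviated there by over 0.3 on the log2 scale from the mean of replicates 1 and 2, 11 of them upward and 7 downward, with a median deviation of 0.01. Over all 11619 tested genes the share was 43.3%. Without this library no member lost a call in any comparison. Calls were gained by 5 members for CD201+CD48- against CD201- cells (Psmb2, Psmb7, Psmb9, Psmb10 and Psmd5), by 5 for CD201+CD48+ against CD201- cells (Psma1, Psma5, Psmb4, Psmd4 and Psmg2) and by 6 between the CD201+ populations. Other marker lists moved with the populations too. Summed interferon-response genes (12 of 14 past the filter, none at 0) spanned 306 to 313 CPM in CD201+CD48-, 178 to 182 in CD201+CD48+ and 96.9 to 112 in CD201- cells. The dendritic and MHC class II list (3 of 8 past the filter) spanned 114 to 130, 67.8 to 86.8 and 20.8 to 25.6 CPM, with Siglech and Ciita at 0 in CD201- cells. In CD201+CD48- cells most of that sum was Cd74, at 102 CPM against 6.47 in CD201- cells, whereas the class II gene H2-Ab1 was lower, at 1.84 against 4.95 CPM (adjusted p = 0.00664). HSC markers (7 of 8) spanned 1957 to 1992, 1446 to 1497 and 1154 to 1172 CPM, with Hoxb5 at 0 in CD201- cells. Mast and basophil genes (2 of 6, Cma1 at 0 throughout) were highest in CD201- cells, at 35.9 to 44.0 CPM, against 5.09 to 9.35 in CD201+CD48- and 2.89 to 4.44 in CD201+CD48+ cells. Megakaryocyte genes (6 of 6) spanned 579 to 601, 128 to 138 and 406 to 467 CPM. Granulocyte-monocyte genes (5 of 8) spanned 145 to 163, 106 to 114 and 71.7 to 104 CPM, with Elane at 0 in both CD201+ populations and Mpo in the first. That sum was mostly Lyz2, at 135 CPM in CD201+CD48- against 56.1 in CD201- cells, while Mpo (0 against 10.2 CPM) and Ctsg (0.143 against 2.91 CPM) were lower in CD201+CD48- cells and Prtn3 was at 14.9 against 15.9 CPM. Erythroid genes (2 of 6, Hba-a1 and Car1 at 0 throughout) spanned 196 to 221, 136 to 148 and 50.0 to 92.5 CPM, and no lymphoid marker passed the filter. The part of these lists in the results that follow was not tested, and in bulk RNA a smaller share of cells of 1 type cannot be told apart from less RNA per cell.

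In the comparison of CD201+CD48- with CD201- cells, most proteasome transcripts were lower in the CD201+CD48- cells, by a modest amount, in the core, the 19S particle and the activators alike. At an adjusted p under 0.05 (edgeR's quasi-likelihood test, Benjamini-Hochberg adjustment over all 11619 tested genes, as throughout), 36 of 48 members were lower, none was higher and 12 did not pass. Among all tested genes, 23.9% were lower and 24.2% higher. The members' median log2 fold change was −0.38, against 0.00 for all genes, and 47 of 48 members had a negative value, against 49.8% of all genes. Before adjustment, 39 members had p under 0.05, all lower, and DESeq2 and limma called 35 lower each and none higher. In 36 members every CD201+CD48- library was below every CD201- library, which held for 27.2% of all genes, and in none was every library above, which held for 28% of all genes. With CD201- replicate 3 left out, 41 members were lower, among them all 36 of the fit with every library, beside 26.0% of all genes. Scaling by total counts alone raised the median of all genes by 0.17 and left 16 members lower and none higher. Relative to the median of all genes, the members' median was then still −0.38. Of the 36 calls, 16 held in all 17 alternatives, and 9 were lost without at least 1 single library (Psma1, Psmb4, Psmb5, Psmb8, Psmd4, Psmd8, Psme2, Psme4 and Psmg2). The split of all genes moved from 2807 higher and 2778 lower to 3974 higher and 1685 lower when scaled by total counts alone.

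The CD201+CD48+ cells lay between the other populations. Compared with CD201- cells, 22 of 48 members were lower, none was higher and 26 did not pass, beside 14.3% of all genes lower and 14.8% higher. The median log2 fold change was −0.26 for the members and −0.00 for all genes. Negative values were found in 45 of 48 members and in 50.2% of all genes. Before adjustment, 31 members had p under 0.05, all lower, and DESeq2 and limma called 20 and 22 lower and none higher. Every CD201+CD48+ library was below every CD201- library in 30 members, against 20.3% of all genes, and above in 1 member, Psma8, against 21.4%. When CD201- replicate 3 was left out, 27 members were lower, beside 17.9% of all genes. Without CD201+CD48+ replicate 3 only 13 were, beside 9.10% of all genes. Scaling by total counts alone moved the median of all genes by 0.13, left 9 members lower and shifted the split of all genes from 1723 higher and 1661 lower to 2701 and 851, while upper quartile scaling gave 13 members and 2161 and 1185 genes. Of the 22 calls, 8 held in all 17 alternatives, and 11 were lost without at least 1 single library (Psma2, Psma7, Psmb3, Psmb5, Psmb6, Psmc5, Psmc6, Psmd3, Psmd8, Psmd13 and Psme2). This comparison and the preceding one share the CD201- libraries, so their values are set side by side and not counted as independent.

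Between the CD201+ populations, few proteasome genes passed the test. In CD201+CD48- against CD201+CD48+ cells, 2 of 48 members were lower (Psma6 and Psmc3ip) and none was higher, beside 6.31% of all genes lower and 9.05% higher. Before adjustment, 6 members had p under 0.05 (Psma6, Psmc3ip, Psmd1, Psmd6, Psmd13 and Psmd14), all lower, and DESeq2 called 0 members higher and 1 lower. The members' median was −0.11, against −0.01 for all genes. Values were negative in 46 of 48 members, against 50.8% of all genes. In 15 members every CD201+CD48- library was below every CD201+CD48+ library, against 19.7% of all genes, and in none was every one above, against 21%. Leaving out CD201- replicate 3, which enters this fit through the shared estimate of spread, gave 8 lower members, beside 14.5% of all genes. The 6 added were Psmc3, Psmd1, Psmd6, Psmd13, Psmd14 and Psmg2. Leaving out any 1 of the 3 CD201+CD48- libraries, or CD201+CD48+ replicate 2 or 3, left no member past the threshold, with 2 to 6 members then at unadjusted p under 0.05, and leaving out CD201+CD48+ replicate 1 left 1.

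**Figure D1:**
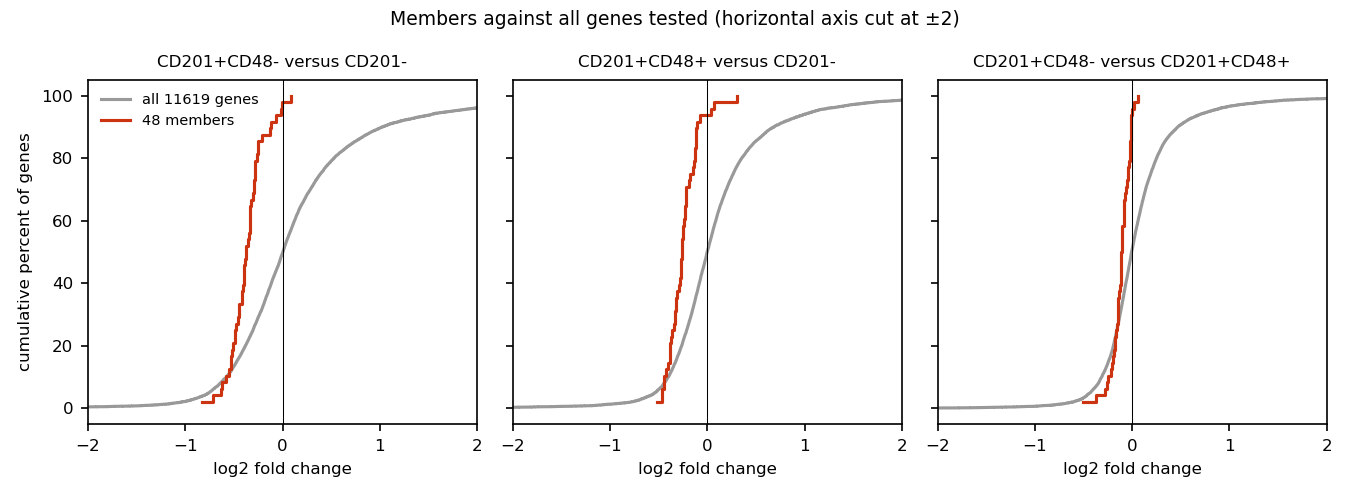
Cumulative percent of genes (vertical axis) by log2 fold change (horizontal axis, cut at both ends) for the 48 tested members and for all 11619 tested genes, 1 panel per comparison. At the medians, the members' curve lies to the left of that of all genes in each panel, at −0.38, −0.26 and −0.11 against 0.00, −0.00 and −0.01. At the low end the order is reversed. The lowest member values are −0.83, −0.52 and −0.51, whereas all genes reach down to −8.72, −4.27 and −5.66.

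Summed over the 50 members, proteasome transcripts made up 0.442, 0.462 and 0.456% of the counts in the CD201+CD48- libraries, 0.468, 0.488 and 0.474% in the CD201+CD48+ libraries and 0.526, 0.527 and 0.541% in the CD201- libraries. The 3 ranges of this share did not overlap. The 17 subunits of the 19S particle summed to 1940.4, 2031 and 2031 CPM, to 2191, 2229 and 2136 CPM and to 2615, 2641 and 3187 CPM in the same order of populations. The 15 constitutive core subunits summed to 1190.3, 1252 and 1193 CPM, to 1246, 1367 and 1314 CPM and to 1556, 1516 and 1573 CPM. In CPM, CD201- replicate 3 was the highest library for both sums, and more so for the 19S particle. As a share of unscaled counts, the constitutive core made up 0.1493, 0.1456 and 0.1376% in the CD201- libraries, so replicate 3 was their lowest. The CD201+CD48+ libraries had 0.1272, 0.1385 and 0.1351%, and these 2 ranges overlapped. The count ratio of 19S to constitutive core genes was 1.63, 1.62 and 1.70 in CD201+CD48-, 1.76, 1.63 and 1.63 in CD201+CD48+ and 1.68, 1.74 and 2.03 in CD201- libraries, and the ranges of all populations overlapped.

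**Figure D2:**
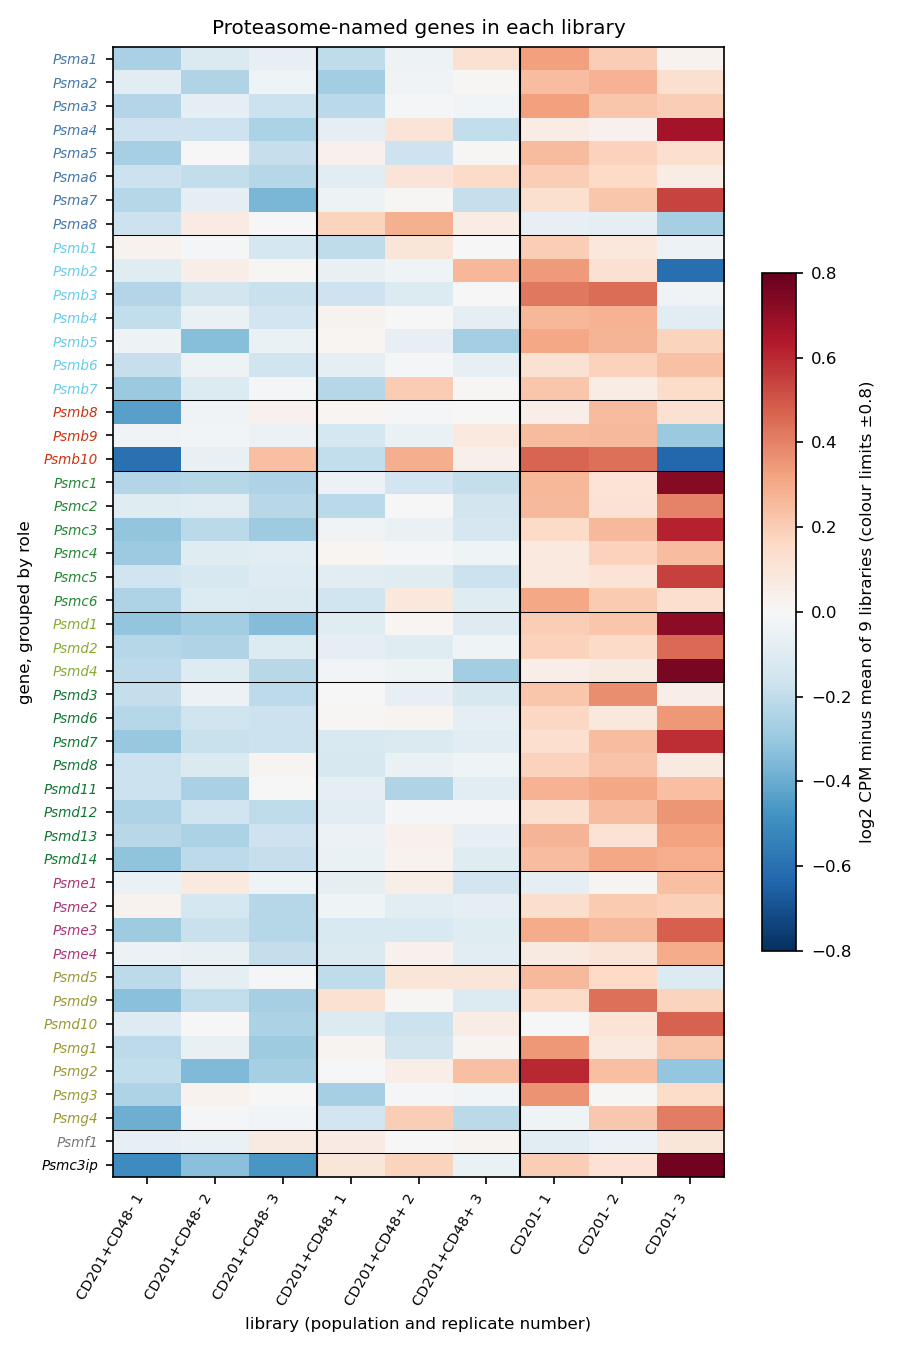
Level of each of the 48 tested members (rows, grouped by role) in each of the 9 libraries (columns), as log2 CPM minus the gene's mean over the libraries. Most rows run from low in the 3 CD201+CD48- libraries to high in the 3 CD201- libraries, and CD201- replicate 3 departs from replicates 1 and 2 in 18 of 48 rows by over 0.3.

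The upstream sequences of 5 members are shown, and a link between sequence and change was not tested. Psmd14 and Psme3 had the smallest p of their roles for CD201+CD48- against CD201- cells. Psmb5, Psmb8 and Psmb9 encode cutting subunits of the constitutive and the immune type. The windows are the 250 bases before the gene's start, from RefSeq with build GRCm38.p6, printed 5′ to 3′ on the gene's strand. They lie at chr2:61711444-61711693 (+) for Psmd14, chr11:101315963-101316212 (+) for Psme3, chr14:54617996-54618245 (-) for Psmb5, chr17:34197945-34198194 (+) for Psmb8 and chr17:34187331-34187580 (-) for Psmb9. Capitals mark every match, on either strand, to 5 motifs. They are TGANNNNGC, the core bound by Nrf1 (Nfe2l1) and Nrf2, then TTCNNNGAA, the gamma-activated site, CCAAT, the NF-Y box, CCGGAAG, a core bound by ETS factors, and the interferon-stimulated response element.
Psmd14: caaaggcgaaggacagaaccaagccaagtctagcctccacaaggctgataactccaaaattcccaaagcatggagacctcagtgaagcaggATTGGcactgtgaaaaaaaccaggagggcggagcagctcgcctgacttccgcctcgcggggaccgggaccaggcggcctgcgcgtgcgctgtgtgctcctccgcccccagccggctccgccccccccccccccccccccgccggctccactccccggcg
Psme3: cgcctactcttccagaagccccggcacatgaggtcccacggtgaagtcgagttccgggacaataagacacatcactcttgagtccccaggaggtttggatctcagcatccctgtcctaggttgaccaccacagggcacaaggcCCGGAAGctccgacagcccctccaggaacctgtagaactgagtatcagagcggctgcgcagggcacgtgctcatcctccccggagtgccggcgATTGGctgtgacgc
Psmb5: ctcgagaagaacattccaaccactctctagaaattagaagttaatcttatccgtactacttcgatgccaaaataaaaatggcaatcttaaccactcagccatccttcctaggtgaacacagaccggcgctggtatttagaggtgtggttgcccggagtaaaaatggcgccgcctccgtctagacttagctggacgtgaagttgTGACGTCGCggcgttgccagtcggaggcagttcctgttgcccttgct
Psmb8: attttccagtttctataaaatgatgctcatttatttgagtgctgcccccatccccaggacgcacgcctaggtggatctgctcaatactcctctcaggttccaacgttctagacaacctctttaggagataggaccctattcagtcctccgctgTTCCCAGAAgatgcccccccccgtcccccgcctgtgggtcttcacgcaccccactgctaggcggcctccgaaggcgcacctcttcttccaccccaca
Psmb9: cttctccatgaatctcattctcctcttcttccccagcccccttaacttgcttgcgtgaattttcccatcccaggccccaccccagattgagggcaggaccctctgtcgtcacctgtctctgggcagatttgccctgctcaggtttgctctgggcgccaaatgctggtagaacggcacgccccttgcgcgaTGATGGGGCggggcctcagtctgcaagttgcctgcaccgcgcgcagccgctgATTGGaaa
Read from the gene's start, Psmd14 holds ATTGG, the CCAAT box on the other strand, at −159 to −155. In Psme3, CCGGAAG lies at −107 to −101 and ATTGG at −14 to −10. Psmb5 has TGACGTCGC at −47 to −39. Among the immune subunits, Psmb8 has TTCCCAGAA at −97 to −89, and Psmb9 has TGATGGGGC at −60 to −52 and ATTGG at −8 to −4. None of these matches overlaps another. Windows were available for 42 of 50 members, 40 of them tested. Of these 40, 14 (35%) held TGANNNNGC, against 35.1% of 27025 windows of all genes and 36.8% of 8936 windows of tested genes. CCAAT was in 14 (35%), against 34.5% and 37.1%. The interferon-stimulated element was in 3 (7.5%), against 3.04% and 2.64%, and the gamma-activated site in 2 (5%), against 7.18% and 5.98%. CCGGAAG was in 12 (30%), against 7.05% of all windows and 14.9% of those of tested genes. A match describes letters in the window and is not a binding site.

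Of the 8 alpha ring members of the core, 7 were lower in the CD201+CD48- population than in the CD201- one, with a median log2 fold change of −0.34. Against CD201- cells, CD201+CD48+ cells were lower in 3 of 8 (Psma2, Psma3 and Psma7), with a median of −0.27, and between the CD201+ populations 1 of 8 passed, with a median of −0.13. Of all genes, 23.9%, 14.3% and 6.31% were lower in these 3 comparisons. Psma3, which had the smallest p of the ring against CD201- cells, measured 106, 118 and 111 CPM in CD201+CD48-, 107, 123 and 123 in CD201+CD48+ and 156, 145 and 143 in CD201- libraries. All CD201- libraries were above all others. Its log2 fold change was −0.41 ± 0.08 (SE, adjusted p = 0.000557) in CD201+CD48- and −0.33 ± 0.08 (SE, adjusted p = 0.00548) in CD201+CD48+ cells, each against CD201-. Psma6 measured 95.5, 93.7 and 91.7 CPM in CD201+CD48-, 101, 115 and 119 in CD201+CD48+ and 123, 120.1 and 112 in CD201- libraries. Its CD201+CD48- libraries were the 3 lowest, while the CD201+CD48+ and CD201- libraries overlapped. On the log2 scale the change was −0.34 ± 0.08 (SE, adjusted p = 0.00297) for CD201+CD48- against CD201-, −0.08 ± 0.08 (SE, adjusted p = 0.492) for CD201+CD48+ against CD201- and −0.26 ± 0.08 (SE, adjusted p = 0.0404) between the CD201+ populations. The last call held in 8 of 17 alternatives, with adjusted p from 0.00194 to 0.180, and was lost without any 1 of the CD201+CD48- libraries (0.0974, 0.108 and 0.139) and without CD201+CD48+ replicate 2 (0.127) or 3 (0.180). Psma1, Psma4, Psma5 and Psma7 were lower in CD201+CD48- cells as well, from −0.53 to −0.33, and Psma7 also passed for CD201+CD48+ cells, at −0.38 ± 0.11 (SE, adjusted p = 0.0138). That value was −0.25 without CD201- replicate 3, and Psma4 in CD201+CD48- cells moved from −0.47 to −0.24, both past the threshold. Psma2 was lower in both CD201+ populations, at −0.33 ± 0.09 (SE, adjusted p = 0.00735) and −0.31 ± 0.09 (SE, adjusted p = 0.0172), and had the largest p of the ring between them, at −0.02 ± 0.09 (SE, adjusted p = 0.915). Psma8, the testis-type alternative to Psma7 in mouse spermatocytes, was low, at 10.1, 11.9 and 11.3 CPM in CD201+CD48-, 12.8, 13.8 and 11.8 in CD201+CD48+ and 10.8, 10.8 and 9.42 in CD201- libraries. The CD201+CD48+ libraries were above the CD201- libraries without overlap, but the log2 fold change of 0.30 ± 0.16 (SE, adjusted p = 0.163) did not pass.

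In the constitutive beta ring, 4 of 7 members (Psmb3, Psmb4, Psmb5 and Psmb6) were below the CD201- level in CD201+CD48- cells, with a median log2 fold change of −0.30. For CD201+CD48+ cells 3 of 7 passed (Psmb3, Psmb5 and Psmb6), with a median of −0.18, and between the CD201+ populations none of 7 did, with a median of −0.09. The share of all genes that was lower was 23.9%, 14.3% and 6.31% in the same order. Psmb5, whose product has the chymotrypsin-like activity, measured 27.7, 22.5 and 27.5 CPM in CD201+CD48-, 28.9, 27.2 and 23.7 in CD201+CD48+ and 35.4, 34.4 and 32.2 in CD201- libraries. Every CD201- library was above every other. The fitted log2 change was −0.39 ± 0.12 (SE, adjusted p = 0.0162) and −0.36 ± 0.12 (SE, adjusted p = 0.0313) for the CD201+CD48- and the CD201+CD48+ cells. Psmb6, the caspase-like subunit, measured 68.3, 75.5 and 69.5 CPM in CD201+CD48-, 73.6, 76.9 and 73.99 in CD201+CD48+ and 84.5, 88 and 91.2 in CD201- libraries. Its CD201- libraries were again the 3 highest, with −0.31 ± 0.08 (SE, adjusted p = 0.00436) and −0.23 ± 0.08 (SE, adjusted p = 0.0330). The calls of Psmb5 and Psmb6 for CD201+CD48+ cells held in 9 and 8 of 17 alternatives, and that of Psmb3 in 10, being lost without replicate 1 or 2 of either population (adjusted p from 0.0755 to 0.104). The call of Psmb4 for CD201+CD48- cells also held in 10 of 17 and was lost without CD201+CD48- replicate 1 or 3 or CD201- replicate 1 or 2 (0.0611 to 0.0793). Psmb7, the trypsin-like subunit, measured 52.8, 60.1 and 64.4 CPM in CD201+CD48-, 55.4, 74.6 and 65.1 in CD201+CD48+ and 75.5, 67.3 and 71.7 in CD201- libraries. The CD201+CD48- libraries lay below the CD201- libraries, and the CD201+CD48+ libraries overlapped both. Its log2 fold change was −0.28 ± 0.11 (SE, adjusted p = 0.0528) against CD201- cells, −0.14 ± 0.11 (SE, adjusted p = 0.365) for CD201+CD48+ cells and −0.14 ± 0.11 (SE, adjusted p = 0.451) between the CD201+ populations. Without CD201- replicate 3 the first passed, at an adjusted p of 0.0209, 1 of the 6 alternatives of 17 in which it did (0.0209 to 0.459 over the 17). Among the structural subunits, Psmb3 had the smallest p for CD201+CD48+ cells, at −0.38 ± 0.12 (SE, adjusted p = 0.0256), and −0.49 ± 0.12 (SE, adjusted p = 0.00440) for CD201+CD48- cells. Psmb2 had the largest, at 0.07 ± 0.18 (SE, adjusted p = 0.809) and −0.02 ± 0.18 (SE, adjusted p = 0.945). It measured 53.1, 58.9 and 57.3 CPM in CD201+CD48-, 54.7, 55.6 and 68.5 in CD201+CD48+ and 71.9, 61.8 and 37.5 in CD201- libraries. CD201- replicate 3 was the lowest of the 9 libraries and replicate 1 the highest, and without replicate 3 the CD201+CD48- difference was −0.25, with an adjusted p of 0.0311 (0.0311 to 0.979 over 17 alternatives). Psmb1 did not pass in any comparison, at −0.12 ± 0.09 (SE, adjusted p = 0.298) against CD201- cells and −0.01 ± 0.09 (SE, adjusted p = 0.961) between the CD201+ populations.

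Of the 3 immunoproteasome subunits, Psmb8 passed, for CD201+CD48- against CD201- cells, and Psmb9 and Psmb10 passed in no comparison. With 23.9% of all genes lower in that comparison, 1 of 3 is near the background. The medians of the 3 were −0.28, −0.13 and −0.13 in the 3 comparisons. Psmb8, the immune counterpart of Psmb5, lies within the MHC region at chr17:34198195-34201454, 969 bases from Tap1. It measured 93.4, 123 and 129 CPM in CD201+CD48-, 127, 125 and 125 in CD201+CD48+ and 131, 150.4 and 137 in CD201- libraries. CD201+CD48- replicate 1 was the lowest library by a wide gap, and the CD201- libraries were above all others. The difference on the log2 scale was −0.28 ± 0.10 (SE, adjusted p = 0.0358), −0.15 ± 0.10 (SE, adjusted p = 0.299) and −0.13 ± 0.10 (SE, adjusted p = 0.435), in the order of the comparisons so far. The call held in 10 of 17 alternatives, with adjusted p from 0.00600 to 0.403, and was lost without CD201+CD48- replicate 1 (−0.15, adjusted p = 0.207), CD201- replicate 2 (0.118) or CD201+CD48+ replicate 1 (0.0512). Psmb9, the counterpart of Psmb6, lies at chr17:34182030-34187330, 225 bases from Tap1 on its other side. It measured 27.2, 27.3 and 26.8 CPM in CD201+CD48-, 25.1, 26.6 and 29.3 in CD201+CD48+ and 32.98, 33.1 and 22.6 in CD201- libraries. CD201- replicate 3 was the lowest of all 9 libraries and replicates 1 and 2 the highest. On the log2 scale the change was −0.13 ± 0.14 (SE, adjusted p = 0.490), −0.13 ± 0.14 (SE, adjusted p = 0.525) and −0.00 ± 0.14 (SE, adjusted p = 0.998). Psmb10, the counterpart of Psmb7, measured 11.7, 16.9 and 20.8 CPM in CD201+CD48-, 15.4, 21.5 and 18.2 in CD201+CD48+ and 24.3, 23.9 and 11.4 in CD201- libraries. It had the same arrangement, with CD201- replicate 3 lowest and replicates 1 and 2 highest. The fitted log2 change was −0.29 ± 0.27 (SE, adjusted p = 0.405), −0.12 ± 0.26 (SE, adjusted p = 0.767) and −0.17 ± 0.27 (SE, adjusted p = 0.732). Without CD201- replicate 3, the differences between CD201+CD48- and CD201- cells became −0.29 for Psmb9 (adjusted p = 0.0457) and −0.58 for Psmb10 (adjusted p = 0.00431), the only alternative of 17 in which either passed, within ranges up to 0.863 and 0.869. For CD201+CD48+ cells they became −0.28 (adjusted p = 0.0592) and −0.40 (adjusted p = 0.0513).

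**Figure D3:**
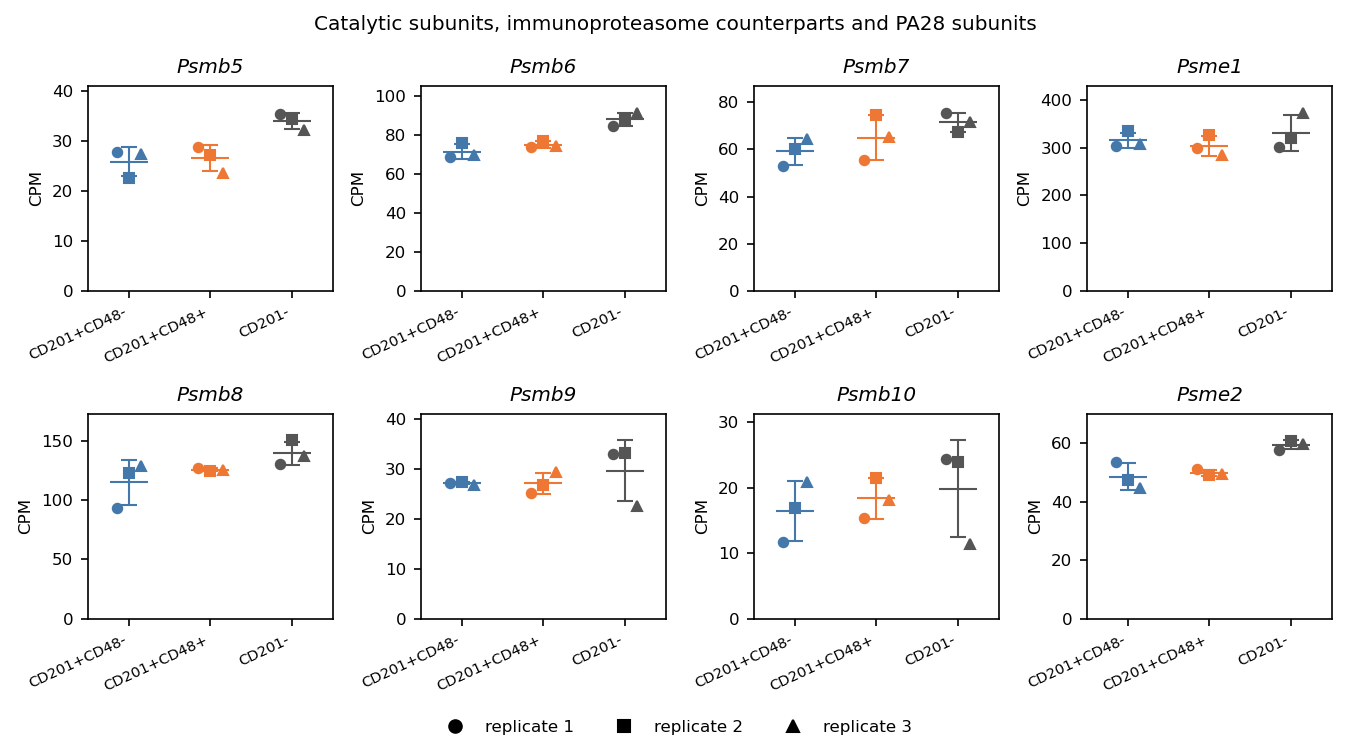
CPM in each library (points) with the mean ± SD of each population (n = 3) for Psmb5, Psmb6, Psmb7 and Psme1 and for Psmb8, Psmb9, Psmb10 and Psme2. CD201- replicate 3 is the lowest library for Psmb9 (22.6 CPM) and Psmb10 (11.4 CPM), whereas the CD201- libraries are the 3 highest for Psmb5, Psmb6, Psmb8 and Psme2.

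The balance of immune to constitutive cutting subunits was read as the ratio of their counts within each library, which needs no scaling between libraries. Psmb8 to Psmb5 was 3.37, 5.48 and 4.69 in CD201+CD48-, 4.41, 4.58 and 5.30 in CD201+CD48+ and 3.69, 4.37 and 4.26 in CD201- libraries. The lowest and the highest of these 9 ratios were both in CD201+CD48- libraries, and every CD201+CD48+ ratio was above every CD201- ratio. Psmb9 to Psmb6 was 0.398, 0.361 and 0.385, then 0.341, 0.346 and 0.396, then 0.390, 0.377 and 0.248. Psmb10 to Psmb7 was 0.221, 0.282 and 0.323, then 0.278, 0.289 and 0.279, then 0.323, 0.355 and 0.159. In both pairs CD201- replicate 3 had the lowest ratio of the 9, and the populations overlapped. Over the 3 pairs and 3 comparisons, the exact two-sided permutation p ranged from 0.1, the smallest that 3 against 3 libraries allow, to 1, and the smallest of the 9 adjusted values was 0.9. The direction of the Psmb9 and Psmb10 ratios against CD201- cells turned without CD201- replicate 3: the log2 difference went from 0.05 to −0.32 for Psmb10 in CD201+CD48- cells, from 0.10 to −0.26 in CD201+CD48+ cells, and from 0.20 to −0.01 and 0.12 to −0.09 for Psmb9.

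All 17 subunits of the 19S regulatory particle were below their CD201- level in CD201+CD48- cells, with log2 fold changes from −0.71 to −0.25 and a median of −0.45, and 14 of 17 were lower in CD201+CD48+ cells, with a median of −0.34. None of 17 passed between the CD201+ populations, with a median of −0.11. Of all genes, 23.9%, 14.3% and 6.31% were lower. Scaled by total counts alone, Psmc4, Psmc5, Psmc6, Psmd3, Psmd4 and Psmd8 lost the call for CD201+CD48- cells. For CD201+CD48+ cells it was then lost by Psmc5, Psmc6, Psmd3, Psmd8, Psmd12, Psmd13 and Psmd14. Without CD201+CD48+ replicate 3, Psmc5, Psmc6, Psmd3, Psmd8 and Psmd13 lost the latter call. A difference between the 19S particle and the core was not tested. Among the base ATPases, which unfold substrates, 6 of 6 and 5 of 6 were lower. Psmc3 measured 156, 167 and 159 CPM in CD201+CD48-, 190.2, 187 and 177 in CD201+CD48+ and 216, 233 and 297 in CD201- libraries. The 3 populations did not overlap, and CD201- replicate 3 was the highest library. The difference on the log2 scale was −0.63 ± 0.10 (SE, adjusted p = 0.000107), −0.43 ± 0.10 (SE, adjusted p = 0.00474) and −0.20 ± 0.10 (SE, adjusted p = 0.207). Psmc1 measured 113, 113 and 112 CPM in CD201+CD48-, 128, 119 and 116 in CD201+CD48+ and 159, 143 and 219.8 in CD201- libraries. It was highest in CD201- replicate 3 as well, and each population lay above the one before it, with −0.63 ± 0.12 (SE, adjusted p = 0.000804) and −0.52 ± 0.12 (SE, adjusted p = 0.00569) against CD201- cells. Without CD201- replicate 3 the changes against CD201- cells were −0.49 and −0.28 for Psmc3 and −0.43 and −0.32 for Psmc1, all past the threshold, and the difference of Psmc3 between the CD201+ populations passed, at −0.21 with an adjusted p of 0.00381 (0.00381 to 0.423 over 17 alternatives, 2 of which called it). Psmc5 had the largest p of the ATPases for CD201+CD48- cells, at −0.39 ± 0.11 (SE, adjusted p = 0.00864), and between the CD201+ populations, at −0.01 ± 0.11 (SE, adjusted p = 0.956). It was, without CD201- replicate 3, at −0.23 for CD201+CD48- cells and at −0.21 for CD201+CD48+ cells, where it had been −0.38, and it passed in both. Psmc4 was the ATPase that did not pass for CD201+CD48+ cells, at −0.18 ± 0.08 (SE, adjusted p = 0.0948), and Psmc2 and Psmc6 were lower in both CD201+ populations, at −0.39 and −0.38 for CD201+CD48- and −0.38 and −0.27 for CD201+CD48+ cells.

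Among the non-ATPase subunits of the base, Psmd1 and Psmd2, the large scaffold subunits that dock ubiquitin receptors, were lower in both CD201+ populations. Psmd1 measured 216, 222 and 212 CPM in CD201+CD48-, 252, 272 and 250.4 in CD201+CD48+ and 309, 314 and 443 in CD201- libraries. No populations overlapped, and CD201- replicate 3 was far above its fellows. On the log2 scale the change was −0.71 ± 0.12 (SE, adjusted p = 0.000137), −0.46 ± 0.11 (SE, adjusted p = 0.00739) and −0.25 ± 0.12 (SE, adjusted p = 0.167), the first of them the most negative among the 47 tested proteasome genes. Without CD201- replicate 3 the changes against CD201- cells were −0.53 and −0.27, both past the threshold. The change between the CD201+ populations then passed as well, at −0.26 with an adjusted p of 0.000111 (0.000111 to 0.362 over 17 alternatives, 3 of which called it). Psmd2 gave −0.46 ± 0.09 (SE, adjusted p = 0.000411) and −0.34 ± 0.09 (SE, adjusted p = 0.00781). Psmd4, an intrinsic ubiquitin receptor, measured 172, 186 and 171 CPM in CD201+CD48-, 196, 194 and 164 in CD201+CD48+ and 206, 209.8 and 336 in CD201- libraries. Of the members it showed the largest upward departure in CD201- replicate 3, by 0.69 on the log2 scale. Its log2 fold change was −0.51 ± 0.16 (SE, adjusted p = 0.0188) for CD201+CD48- cells, −0.44 ± 0.16 (SE, adjusted p = 0.0523) for CD201+CD48+ cells and −0.07 ± 0.16 (SE, adjusted p = 0.837) between the CD201+ populations. Without CD201- replicate 3 the values against CD201- cells became −0.24 (adjusted p = 0.00196) and −0.17 (adjusted p = 0.0349), and both passed. Over 17 alternatives these adjusted p ran from 6.10e-06 to 0.0517 and from 0.000267 to 0.166, and the CD201+CD48- call was lost without CD201+CD48- replicate 3 (0.0517).

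The lid was lower in CD201+CD48- cells in 8 of 8 members, with a median of −0.43, and in CD201+CD48+ cells in 7 of 8, with a median of −0.29. The shares of all genes lower in these comparisons were 23.9% and 14.3%. Psmd14, the metalloprotease that cleaves ubiquitin chains from substrates as they enter, measured 91.5, 99.04 and 101 CPM in CD201+CD48-, 110.0, 116 and 107 in CD201+CD48+ and 136, 142 and 139.6 in CD201- libraries. The 3 populations were apart from one another, and the replicates of each lay close together. The fitted log2 change was −0.52 ± 0.07 (SE, adjusted p = 3.62e-05), −0.32 ± 0.07 (SE, adjusted p = 0.00365) and −0.19 ± 0.07 (SE, adjusted p = 0.0917). The last passed without CD201- replicate 3, at −0.20 with an adjusted p of 0.0179 (0.0179 to 0.311 over 17 alternatives, 2 of which called it). Psmd11, a scaffold subunit of the lid, measured 94.3, 88.9 and 106 CPM in CD201+CD48-, 101, 90.1 and 100.4 in CD201+CD48+ and 129, 132 and 126 in CD201- libraries. Its CD201+ populations overlapped each other and both lay below CD201-. It had the smallest p of the lid for CD201+CD48+ cells, at −0.41 ± 0.08 (SE, adjusted p = 0.00175), with −0.42 ± 0.08 (SE, adjusted p = 0.000671) for CD201+CD48- cells and −0.01 ± 0.08 (SE, adjusted p = 0.951) between the CD201+ populations. Psmd8 had the largest p for CD201+CD48- cells, at −0.25 ± 0.08 (SE, adjusted p = 0.0143), and its calls against CD201- cells were the least stable of the lid. The first was lost without CD201+CD48- replicate 1 or 2 or CD201- replicate 2 (adjusted p up to 0.0747) and held in 12 of 17 alternatives. The second held in 7 of 17 and was lost without any 1 CD201+CD48+ library and without CD201- replicate 1 or 2 (0.0661 to 0.103). Psmd6 was the subunit that did not pass for CD201+CD48+ cells, at −0.22 ± 0.08 (SE, adjusted p = 0.0513). The lid's other members, Psmd3, Psmd7, Psmd12 and Psmd13, were lower in both CD201+ populations, from −0.56 (Psmd7) to −0.37 (Psmd3) for CD201+CD48- cells and from −0.44 (Psmd7) to −0.27 (Psmd13) for CD201+CD48+ cells. The last Psmd7 value was −0.29 without CD201- replicate 3 and passed.

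**Figure D4:**
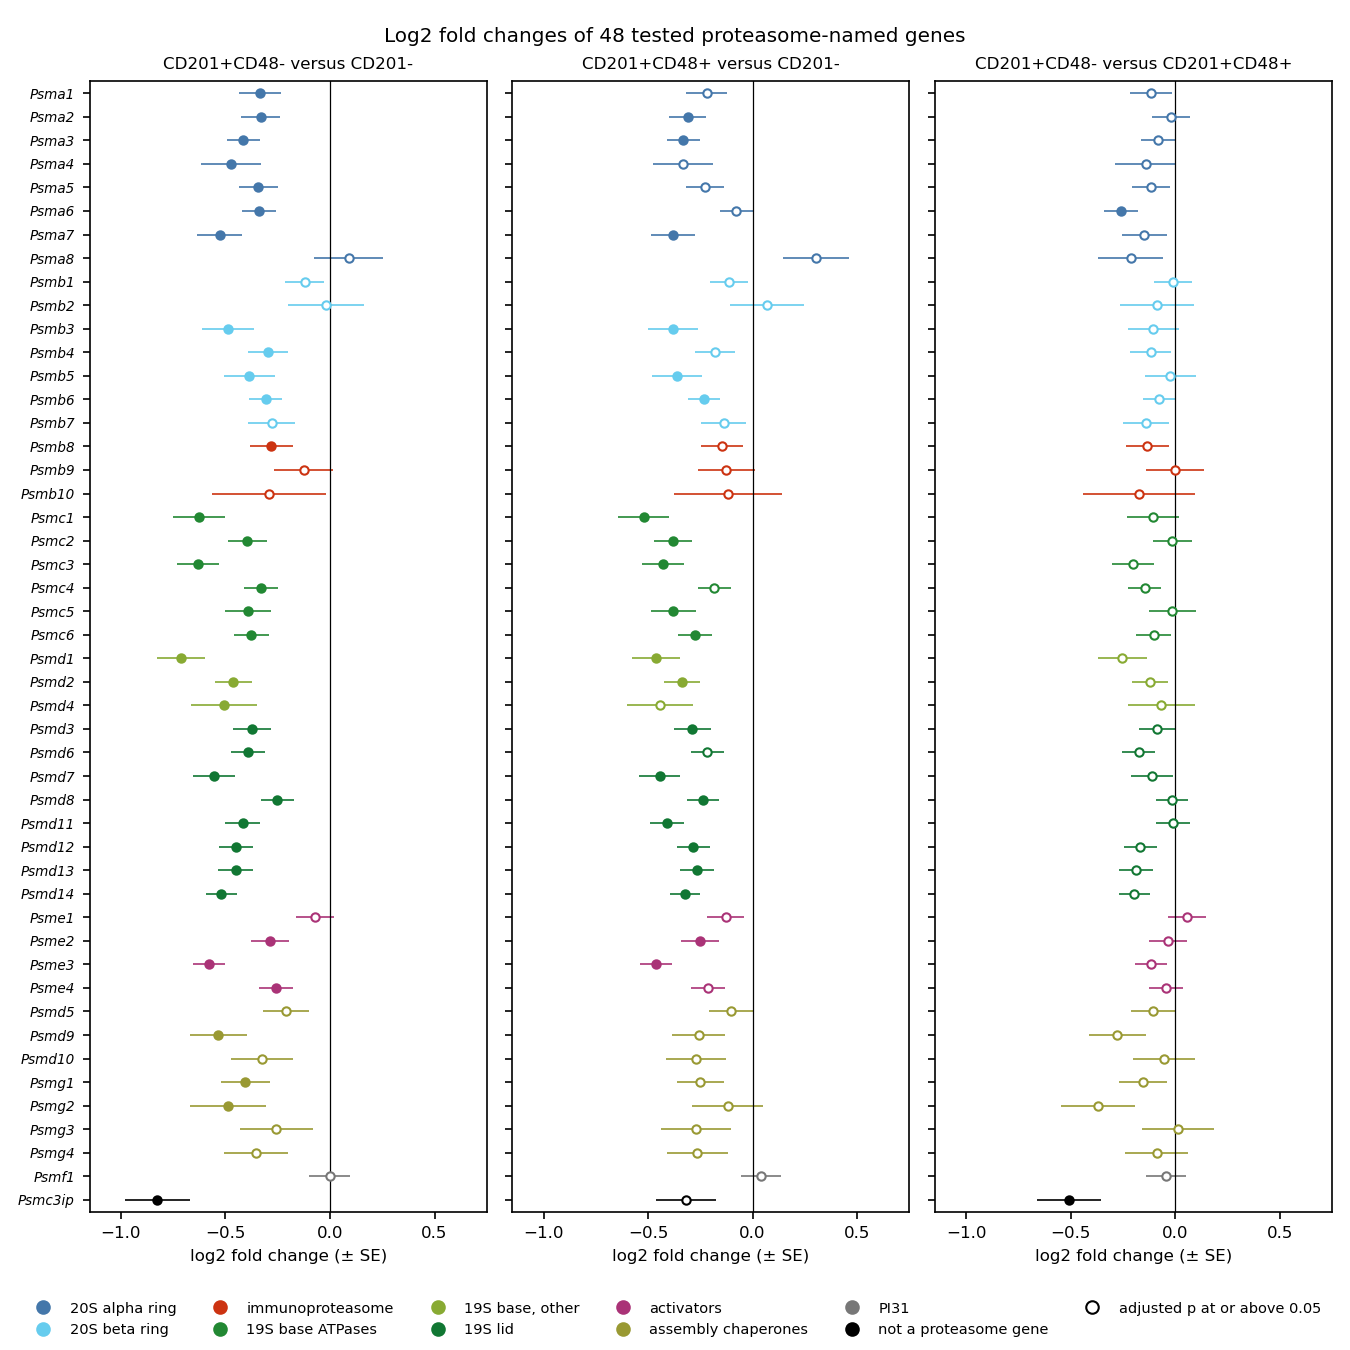
Log2 fold change ± SE of the 48 tested members, grouped by role, in the 3 comparisons (1 panel each); filled points have an adjusted p under 0.05. Filled points number 36, 22 and 2, all below 0, beside 23.9%, 14.3% and 6.31% of all genes. All 17 subunits of the 19S particle are filled in the first panel.

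Of the 4 tested genes of alternative caps, 3 passed for CD201+CD48- and 2 for CD201+CD48+ cells, all below CD201- cells, with medians of −0.27 and −0.23, and none passed between the CD201+ populations, with a median of −0.04. Beside these counts, 23.9%, 14.3% and 6.31% of all genes were lower. Psme3, which forms the nuclear PA28-gamma activator, measured 126, 136 and 131 CPM in CD201+CD48-, 141, 141 and 143 in CD201+CD48+ and 188, 184 and 214 in CD201- libraries. The CD201- libraries were well above the rest, and every CD201+CD48- library was below every CD201+CD48+ library. Its log2 fold change was −0.58 ± 0.08 (SE, adjusted p = 1.79e-05), −0.46 ± 0.08 (SE, adjusted p = 0.000324) and −0.12 ± 0.08 (SE, adjusted p = 0.357), and both calls against CD201- cells held in 17 of 17 alternatives. Psme1 and Psme2, the interferon-inducible subunits of the cytosolic PA28 ring, lie 5912 bases apart on chromosome 14. Psme1 measured 304, 334 and 308 CPM in CD201+CD48-, 299, 326 and 284 in CD201+CD48+ and 300.3, 320.4 and 373 in CD201- libraries. The populations overlapped, and the log2 fold change was −0.07 ± 0.09 (SE, adjusted p = 0.545), −0.13 ± 0.09 (SE, adjusted p = 0.302) and 0.06 ± 0.09 (SE, adjusted p = 0.733). Psme2 measured 53.5, 47.5 and 44.7 CPM in CD201+CD48-, 51.1, 49.1 and 49.5 in CD201+CD48+ and 57.8, 60.7 and 59.8 in CD201- libraries. All CD201- libraries were above all others, with log2 fold changes of −0.29 ± 0.09 (SE, adjusted p = 0.0176) and −0.25 ± 0.09 (SE, adjusted p = 0.0460), while the CD201+ populations overlapped at −0.03 ± 0.09 (SE, adjusted p = 0.854). The call for CD201+CD48+ cells held in 4 of 17 alternatives, with adjusted p from 0.0389 to 0.372, and leaving out any 1 library other than CD201+CD48- replicate 1 or CD201- replicate 3 lost it (0.0524 to 0.125). Psme4, which encodes PA200, was lower in CD201+CD48- cells, at −0.26 ± 0.08 (SE, adjusted p = 0.0164), and gave −0.22 ± 0.08 (SE, adjusted p = 0.0590) for CD201+CD48+ cells. Psmf1, which encodes the regulator PI31, measured 36.7, 37.1 and 40.5 CPM in CD201+CD48-, 40.3, 38.4 and 39.1 in CD201+CD48+ and 36.1, 37.2 and 41.2 in CD201- libraries. Its populations overlapped, at −0.00 ± 0.10 (SE, adjusted p = 0.986), 0.04 ± 0.10 (SE, adjusted p = 0.791) and −0.04 ± 0.10 (SE, adjusted p = 0.823).

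Among assembly chaperones, 3 of 7 (Psmd9, Psmg1 and Psmg2) passed for CD201+CD48- cells and were below CD201- cells, with a median of −0.35, and none of 7 passed in the other comparisons, with medians of −0.26 and −0.11. All genes were lower in 23.9%, 14.3% and 6.31% of cases in the 3 comparisons. Psmd9, a chaperone of the base, measured 15.2, 16.7 and 15.9 CPM in CD201+CD48-, 20.8, 19.3 and 17.7 in CD201+CD48+ and 21.2, 26.03 and 21.7 in CD201- libraries. The 3 populations did not overlap. Its log2 fold change was −0.53 ± 0.14 (SE, adjusted p = 0.00435), −0.26 ± 0.13 (SE, adjusted p = 0.142) and −0.28 ± 0.13 (SE, adjusted p = 0.196). Psmg1 and Psmg2 act as a pair on the alpha ring. Psmg1 was lower in CD201+CD48- cells, at −0.40 ± 0.12 (SE, adjusted p = 0.00903), and gave −0.25 ± 0.11 (SE, adjusted p = 0.104) for CD201+CD48+ cells. Psmg2 measured 22.2, 19.96 and 21.3 CPM in CD201+CD48-, 25.5, 26.5 and 30.1 in CD201+CD48+ and 38.7, 30.1 and 20.6 in CD201- libraries. The CD201- libraries spread most, with replicate 3 below every CD201+CD48+ library. The log2 fold change of −0.49 ± 0.18 (SE, adjusted p = 0.0375) held in 5 of 17 alternatives, with adjusted p from 1.14e-05 to 0.213, and among single libraries was lost without any but CD201- replicate 3 and CD201+CD48+ replicate 3. The highest of those values, 0.213, was without CD201- replicate 1. Between the CD201+ populations it was −0.37 ± 0.18 (SE, adjusted p = 0.189). Psmg3, Psmg4, Psmd5 and Psmd10 did not pass in any comparison, with log2 fold changes for CD201+CD48- against CD201- cells of −0.26, −0.35, −0.21 and −0.33.

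Psmc3ip, the member that is not a proteasome gene, measured 27.4, 30.8 and 28.1 CPM in CD201+CD48-, 41.5, 43.8 and 37.4 in CD201+CD48+ and 44.5, 41.96 and 66.2 in CD201- libraries. The CD201+CD48- libraries were the 3 lowest, and CD201- replicate 3 was the highest. Its log2 fold change was −0.83 ± 0.16 (SE, adjusted p = 0.000456), −0.32 ± 0.14 (SE, adjusted p = 0.113) and −0.51 ± 0.15 (SE, adjusted p = 0.0372). The last call held in 10 of 17 alternatives and was lost without any 1 of the 6 CD201+ libraries, with adjusted p from 0.0562 to 0.146. The gene overlaps Mlx in the annotation. In all, 14 of the 50 members overlap another annotated gene, among them Psma3, Psma4, Psma6, Psmb5, Psmc5, Psmd1, Psmd13, Psme1 and Psme4. Whether the counting used strand was not given in the sources used here, so reads of such partners may be counted with them.

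Genes that work with the proteasome but fall outside the naming rule were read from lists. Of 16 tested partners (shuttles, receptors, deubiquitinases and assembly factors), 9 were lower in CD201+CD48- and 9 in CD201+CD48+ cells, each against CD201- cells, and none was higher. Their medians were −0.26 and −0.29. Of all genes, 23.9% and 14.3% were lower in these comparisons and 24.2% and 14.8% higher. Between the CD201+ populations 1 of 16 was lower, Usp14, near the 6.31% of all genes, with a median of −0.04 for the list. That count was 0 without any 1 CD201+CD48- library or CD201+CD48+ replicate 2 or 3, and 4 without CD201- replicate 3. Uchl5, a deubiquitinase of the 19S particle, averaged 81.5 ± 4.97 CPM in CD201+CD48-, 94.5 ± 4.31 in CD201+CD48+ and 157 ± 33.9 in CD201- cells (SD, n = 3), with log2 fold changes of −0.95 ± 0.12 (SE, adjusted p = 2.09e-05) and −0.73 ± 0.12 (SE, adjusted p = 0.000437). Usp14, the other such deubiquitinase, averaged 88.6 ± 1.21, 109.7 ± 11.6 and 137 ± 10.2 CPM, at −0.63 ± 0.09 (SE, adjusted p = 3.16e-05), −0.32 ± 0.09 (SE, adjusted p = 0.0109) and −0.31 ± 0.09 (SE, adjusted p = 0.0270). Adrm1, a ubiquitin receptor that anchors Uchl5, gave −0.63 ± 0.10 (SE, adjusted p = 9.15e-05) and −0.49 ± 0.10 (SE, adjusted p = 0.00149), and Rad23b, a shuttle that carries ubiquitinated proteins, gave −0.50 ± 0.08 (SE, adjusted p = 5.56e-05) and −0.33 ± 0.07 (SE, adjusted p = 0.00386). Pomp, which matures the core, did not pass, at −0.30 ± 0.12 (SE, adjusted p = 0.0519) and −0.29 ± 0.12 (SE, adjusted p = 0.0758). Scaled by total counts alone, 5 and 3 partners were lower than in CD201- cells, and without CD201+CD48+ replicate 1 or 3 the second count was 5 or 6, none of them higher.

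The segregase p97 extracts ubiquitinated proteins from complexes and membranes. Of 7 tested genes of this list, none was higher, 5 were lower in CD201+CD48- and 4 in CD201+CD48+ cells, with medians of −0.36 and −0.27, and none of 7 passed between the CD201+ populations. Vcp, which encodes p97 itself, gave −0.34 ± 0.08 (SE, adjusted p = 0.00158) and −0.23 ± 0.08 (SE, adjusted p = 0.0293), and its cofactor Nploc4 −0.44 ± 0.08 (SE, adjusted p = 0.000215) and −0.38 ± 0.07 (SE, adjusted p = 0.00160). Of 5 ubiquitin and E1 genes, 1 was lower in each comparison with CD201- cells: Ubb, at −0.26 ± 0.10 (SE, adjusted p = 0.0391), in CD201+CD48- cells and Uba1, at −0.28 ± 0.08 (SE, adjusted p = 0.0213), in CD201+CD48+ cells. Of all genes, 23.9% and 14.3% were lower, so 1 of 5 is near the background. The first count was 0 without CD201+CD48- replicate 1 or 3 or CD201+CD48+ replicate 2 and with a replicate block, and the second was 0 without CD201- replicate 1 or 2 or CD201+CD48+ replicate 2. The fit without CD201- replicate 3 gave 3 lower and 1 higher, and 2 lower and 1 higher, and scaled by total counts alone each comparison had 0 lower and 1 higher. None of 5 passed between the CD201+ populations. The p97 count of 4 for CD201+CD48+ cells was 1 without CD201+CD48+ replicate 3 and 2 without replicate 1, and 1 gene of that list was higher without CD201- replicate 3 or when scaled by total counts alone.

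A list of genes that control proteasome transcription held calls in both directions. Nfe2l1, which encodes Nrf1, the factor that raises proteasome genes when the proteasome is inhibited, averaged 145 ± 0.581 CPM in CD201+CD48-, 133 ± 0.786 in CD201+CD48+ and 183 ± 15.2 in CD201- cells. It was lower in both CD201+ populations, at −0.33 ± 0.07 (SE, adjusted p = 0.00176) and −0.46 ± 0.07 (SE, adjusted p = 0.000272). Ngly1, which removes the sugars from Nrf1, was lower too, at −0.39 ± 0.09 (SE, adjusted p = 0.00282) and −0.30 ± 0.09 (SE, adjusted p = 0.0214), and Ddi2, which cleaves Nrf1, in CD201+CD48+ cells, at −0.20 ± 0.07 (SE, adjusted p = 0.0403). Nfe2l2, which encodes Nrf2, and Maff, a small Maf partner, were higher in CD201+CD48- cells, at 0.36 ± 0.08 (SE, adjusted p = 0.00201) and 1.34 ± 0.27 (SE, adjusted p = 0.000739) against CD201- and 0.38 ± 0.08 (SE, adjusted p = 0.00482) and 1.06 ± 0.25 (SE, adjusted p = 0.00818) against CD201+CD48+ cells. Of the 8 genes of this list, 2 were higher and 2 lower in the first comparison, 0 and 3 in the second, and 2 and 0 between the CD201+ populations. Of all genes, 24.2% and 23.9% were higher and lower in the first comparison, close to the list's shares, 14.8% and 14.3% in the second and 9.05% and 6.31% in the third. The list had medians of −0.12, −0.19 and 0.07. Without CD201+CD48+ replicate 1 or 2 the second comparison had 1 lower gene, and scaled by total counts alone the first 2 comparisons had 0 and 1.

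Genes of MHC class I antigen processing, which handle the peptides that proteasomes make, held calls in both directions. In CD201+CD48- against CD201- cells, 7 of the list's 14 genes were higher and 4 lower, with a median of 0.34. Of all genes, 24.2% were higher and 23.9% lower there. In CD201+CD48+ against CD201- cells 5 were higher and 3 lower, with a median of 0.05, beside 14.8% and 14.3% of all genes. The counts of lower genes were thus near the background in both. Between the CD201+ populations 4 were higher and none lower, with a median of 0.14, beside 9.05% and 6.31% of all genes. The count of higher genes between the CD201+ populations was 0 or 1 without any 1 of the 6 CD201+ libraries. Irf2, an interferon regulatory factor, gave 0.79 ± 0.10 (SE, adjusted p = 1.34e-05), 0.43 ± 0.10 (SE, adjusted p = 0.00516) and 0.36 ± 0.10 (SE, adjusted p = 0.0202). Erap1, which trims peptides in the endoplasmic reticulum, and Nlrc5, the class I transactivator, gave 0.47 ± 0.07 (SE, adjusted p = 7.86e-05) and 0.45 ± 0.07 (SE, adjusted p = 8.70e-05) for CD201+CD48- against CD201- cells. Tap1, the peptide transporter next to Psmb8 and Psmb9, averaged 107 ± 2.99, 98.2 ± 3.63 and 96.8 ± 10.8 CPM and did not pass, at 0.15 ± 0.09 (SE, adjusted p = 0.166), 0.02 ± 0.09 (SE, adjusted p = 0.888) and 0.13 ± 0.08 (SE, adjusted p = 0.346). The lower members in the first comparison were Tap2 and the chaperones Calr, Canx and Pdia3, which serve other glycoproteins as well, from −0.64 to −0.34.

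**Figure D5:**
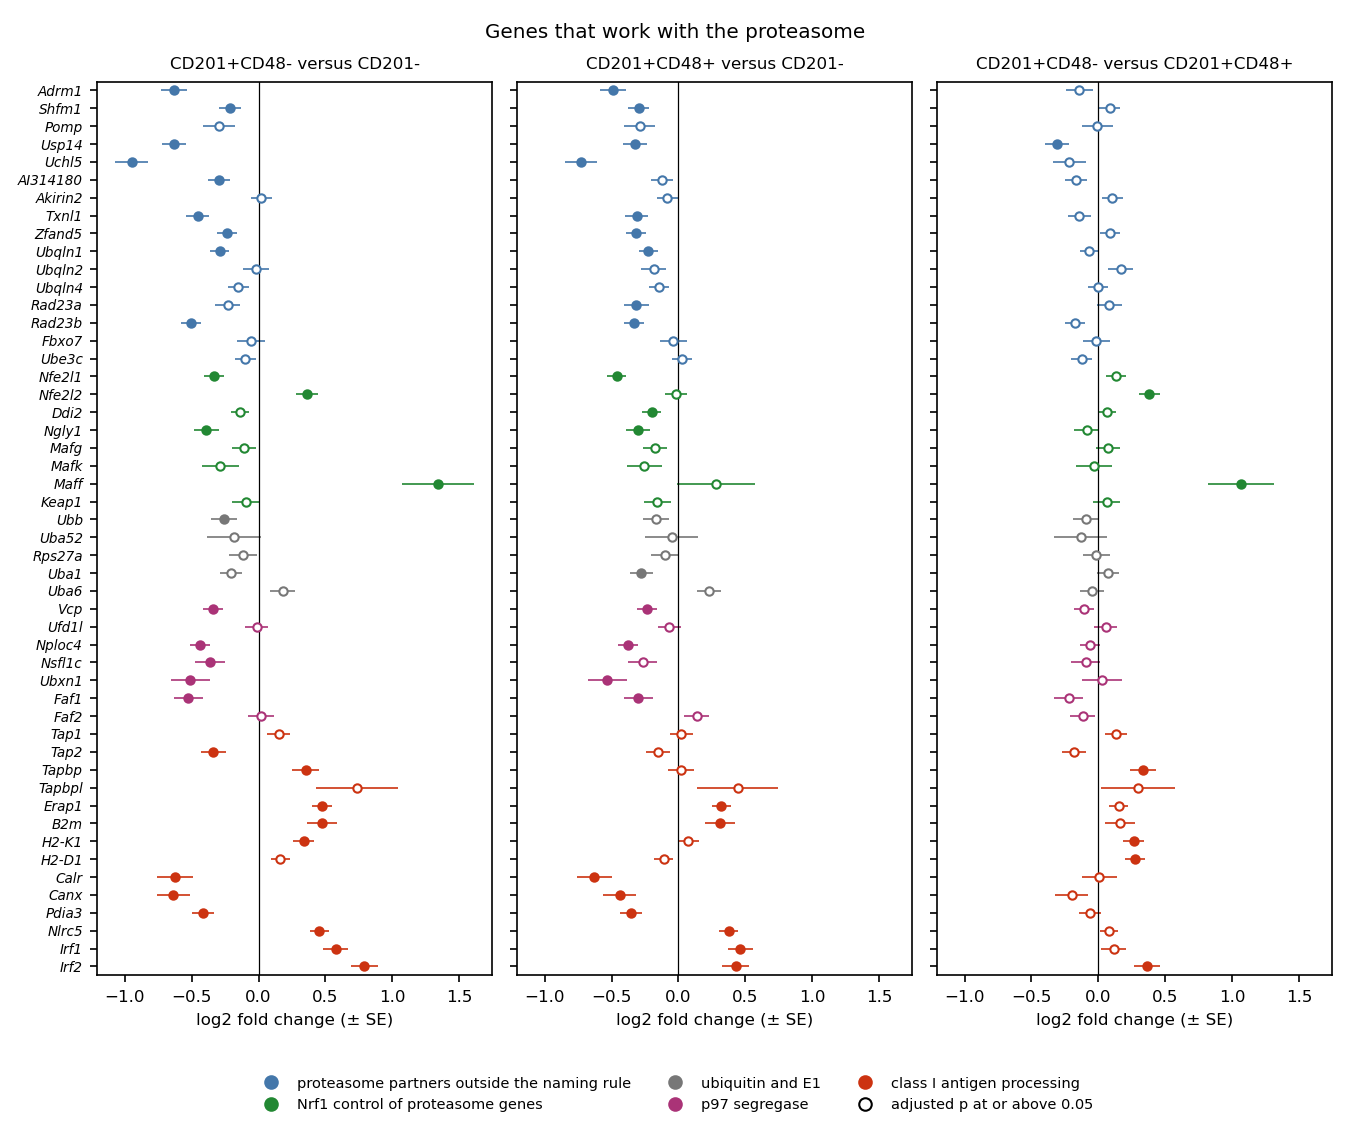
Log2 fold changes of the tested genes of 5 lists (partners, Nrf1 control, ubiquitin and E1, p97 segregase and class I antigen processing) in the 3 comparisons. In the comparison of CD201+CD48- with CD201- cells, 9 of 16 partners and 5 of 7 p97 genes passed below 0 and 7 of 14 class I genes passed above 0. Of all genes, 23.9% passed below 0 and 24.2% above 0.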

How the data were processed

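RNA of 9 libraries (3 populations, 3 replicates each) was made into cDNA with a SMARTer kit and sequenced on a NextSeq 500 as 2 x 36 nt pairs, per the labels' protocols. The authors deposited raw read counts per gene, the basis of every main result, and a normalized signal, which equals the counts divided by 1 size factor per library within a relative 5.12e-10; 26 gene names had turned into dates in that table. The build mm10 and DESeq2 are named in the submitters' processing notes, while the aligner, the counter, the annotation and the use of strand were not given in the sources used here. Without molecular identifiers, counts are not independent molecules, so the limit given for a count of 0 (3 counts) covers counting error only. The counts had 3 further columns that match no sample of the series and were not used.

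Counts were analysed in R 4.3.3 with edgeR 4.0.16: filterByExpr with a minimum count of 10 left 11619 genes, libraries were scaled by TMM, and 1 robust quasi-likelihood model with the population as its term was fitted to all 9 libraries, with a common biological coefficient of variation of 8.64%. Calls had a Benjamini-Hochberg adjusted p under 0.05 over all tested genes, fitted log2 fold changes used a prior count of 2, and their SE is the absolute change over the root of the F statistic. Count ratios within a library were compared by exact two-sided permutation tests. The procedure was tested on simulated counts. In the order of the comparisons it recovered 14.9, 11.9 and 16.4% of the 1.25-fold changes put in. For 1.5-fold changes the shares were 59.7, 65.7 and 73.1%, and for 2-fold changes 90.9, 93.9 and 92.4%. False calls numbered 11, 12 and 9. A member that did not pass may therefore still differ by a small amount. Alternatives were DESeq2 1.42.0, limma 3.58.1 on log2(signal + 1) of the authors' normalized values, other scalings, no filter, a replicate block, only the populations compared, and leaving out each library. The members and lists were chosen with earlier results of these data known. Named in full were Psmb5 to Psmb10, Psme1, Psme2 and, within each role, the member with the smallest and the largest p of each comparison; of other lists, up to 4 genes with the smallest p, with further ones chosen after their values were seen. Some genes of these lists are not reported here and were left out of the lists' counts. Gene positions, overlaps and upstream windows came from RefSeq tables of GRCm38.p6.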

Additional observations from a re-analysis of the deposited data

How the results depend on the processing

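No member changed its direction past the threshold. None was higher in any of the 17 alternatives of any comparison, leaving out each library in turn included (0 to 0). Relative to the median of all genes, the members' median ranged from −0.40 to −0.36 for CD201+CD48- against CD201- cells, from −0.37 to −0.25 for CD201+CD48+ against CD201- cells and from −0.13 to −0.06 between the CD201+ populations. The counts of lower members, 36, 22 and 2 in these comparisons, were 16, 9 and 1 when libraries were scaled by total counts alone. The shares of all genes lower were then 14.5%, 7.32% and 5.25%. Upper quartile scaling gave 13 in the second comparison, beside 10.2% of all genes. Fitting only the populations compared gave 13 in the second and 7 in the third, beside 10.5% and 13.7% of all genes. The latter count was thus near the background. DESeq2's Wald test and limma each gave 1 in the third, beside 5.06% and 5.38% of all genes. Leaving out 1 library gave 31 to 41, 13 to 27 and 0 to 8. The share of all genes lower then ran from 19.8% to 26.0%, 9.10% to 17.9% and 3.07% to 14.5%. With a population left at 2 libraries, its spread is taken to be like that of the others. Same-numbered replicates did not deviate together: their 9 correlations ran from −0.113 to 0.0447, none over 0.1, and 0 of 9 libraries correlated best with their own number, so the numbers were not read as pairs. A fit with a replicate block gave 35, 20 and 0 lower members, beside 22.7%, 12.7% and 4.90% of all genes. The log2 differences in the ratio of immune to constitutive subunits moved without single libraries. For Psmb8 to Psmb5, 0.11 ranged from −0.042 to 0.31 (CD201+CD48- against CD201-) and −0.10 from −0.26 to 0.094 (between the CD201+ populations), while 0.21 for CD201+CD48+ against CD201- ranged from 0.14 to 0.27. For Psmb9 to Psmb6, 0.20 ranged from −0.0077 to 0.32, 0.12 from −0.089 to 0.24 and 0.08 from 0.04 to 0.15. For Psmb10 to Psmb7, 0.05 ranged from −0.32 to 0.26, 0.10 from −0.26 to 0.32 and −0.05 from −0.18 to 0.10. Over the single members, 58, 76 and 16 combinations of member and alternative lost a call and 13, 17 and 12 gained one, of 816 per comparison. In a further 17, 12 and 45 combinations the sign turned without a call in either fit. The cause was not tested. Among the lowest members, Psma8 at 9.42 to 13.8 CPM had SEs of 0.15 to 0.17, and the part of depth in them was not tested.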

Other observations

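Levels can be compared between genes only per transcript length, so CPM was divided by the length in kilobases of the canonical transcript in GENCODE vM39 and, as a check, by the median length of the protein-coding transcripts. On this scale Psma7, an alpha subunit, was the highest of the 48 tested members, at 169 ± 17.2 CPM per kilobase in CD201+CD48-, 187 ± 12.9 in CD201+CD48+ and 243 ± 37.4 in CD201- cells (SD, n = 3), and Psmd4 came next, at 132 ± 6.04, 139 ± 13.2 and 188 ± 55.5. In CD201- cells these neighbours in the order did not differ beyond their spread. Psma8, the testis-type alpha subunit, was the lowest, at 6.45 ± 0.539, 7.47 ± 0.573 and 6.03 ± 0.464 CPM per kilobase. Averaged over the populations, Psmb8 stood at 74.5 CPM per kilobase and its constitutive counterpart Psmb5 at 16.9. The other pairs had the opposite order: Psmb9 stood at 20.6 and Psmb6 at 75.3, and Psmb10 at 13.9 and Psmb7 at 56.2. The order within each pair was the same with either length.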
